A study of Mus musculus with 24 samples.

Results

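The BET inhibitor alone at 12 h is the comparison of 3 arrays from mouse neuron cultures given IBET858 with 3 arrays from cultures given its solvent, DMSO, out of 24 arrays in the series. The arrays were chosen by their labels, as replicates 1 to 3 of each of these groups, and no measured value entered the choice. All cultures were cortical neurons taken at embryonic day 18 and grown for 1 week before treatment. The inhibitor group received 1 µM IBET858 for 12 h and the control group DMSO for 12 h, and neither received BDNF. For comparison, the text uses IBET858 against DMSO after 2 h, and 50 ng per ml BDNF with IBET858 against BDNF alone after 12 h, again 3 arrays for each. The labels give no strain, sex or pooling of embryos, and they do not say that replicates are separate cultures, so p-values measure only how these samples spread. A primary culture is a mixture of cells, and in RNA from a mixture fewer cells of a type cannot be told apart from less RNA per cell.

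BET proteins, among them Brd2 and Brd3, carry bromodomains that bind acetylated lysines on histones. They help bring the kinase P-TEFb to genes, which phosphorylates RNA polymerase II and releases it from its pause near the start site. Hexim1, together with a small nuclear RNA, holds P-TEFb in an inactive store. IBET858 occupies the bromodomain pocket and displaces BET proteins from chromatin. In neurons BET proteins have been studied for their part in transcription induced by synaptic activity and by the neurotrophin BDNF.

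The arrays measured 18193 genes. The deposited log2 values had been centred for each probe set, so they give differences between arrays and no level, and the labelled cell type could not be checked by how bright its markers were. A gene was called when its adjusted p was under 0.05 in limma, with the Benjamini-Hochberg method over all genes. "Rose" and "fell" below refer to called genes, and every change is a log2 difference, IBET858 minus DMSO, with the standard error of the model behind the ± (3 arrays in each group). The spread behind that error is pooled over 8 groups and 24 arrays, and is not that of the 6 compared arrays alone. The standard deviation around the group mean, over genes, was 0.157 for IBET858 replicate 3, against 0.117 and 0.110 for the other two, and 0.085 to 0.106 for the DMSO arrays. Replicate 3 therefore stood apart, and the counts of gene lists at 12 h are given with and without it, as is a list's median where it moved by more than 1.5 times. In the Gapdh control probe sets, 5′ minus 3′ was -0.232 in replicate 3, relative to the DMSO mean. It was -0.074 and -0.02 in the other inhibitor arrays and -0.045 to 0.069 in the DMSO arrays. For Actb, replicate 3 lay within the DMSO range of -0.094 to 0.053. What sets replicate 3 apart was not tested. The Affymetrix poly-A control transcripts, which are added to a sample and belong to no mouse gene, also moved: the mean of their 27 probe sets was 0.865 higher with IBET858, at 0.656, 0.917 and 1.02 in the 3 inhibitor arrays against -0.25, 0.15 and 0.097 in the DMSO arrays. Of 4160 called rises, 479 were larger than that shift. The controls move with the groups, and their part in the results was not tested.

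Nearly as many genes differed as did not. IBET858 called 8861 of 18193 genes (48.7%), of which 4160 were higher (22.9%) and 4701 lower (25.8%), around a median over all genes of 0.041. Most changes were small. Over 2-fold, 317 genes rose (1.74%) and 525 fell (2.89%), and over 4-fold 28 rose and 35 fell. Without replicate 3 the median over all genes was 0.0061. Over 2-fold, 334 genes then rose and 494 fell, and over 4-fold 28 rose and 28 fell. In that fit 45.0% of genes were called, with 3672 higher (20.2%) and 4518 lower (24.8%). Each count of a gene list at 12 h below is to be read against these shares, with or without replicate 3. All 317 and all 525 genes past 2-fold were also called without that array, and in every one of them the 3 arrays of one group lay outside the range of the other. Over all genes the arrays did not overlap in 51.2%. These genes were chosen for being called, so this describes them and is no separate support.

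The highest rises were genes for replication-type histones, the P-TEFb inhibitor Hexim1, a caveola protein and a cytokine. H2bc18, a histone H2B gene, stood at -0.36, 0.10 and 0.25 in the 3 DMSO arrays, relative to their mean, and at 4.33, 4.35 and 4.21 in the IBET858 arrays. It rose by 4.30 ± 0.23, or 19.6-fold (adjusted p = 2.02e-12 in limma), with the inhibitor arrays within a narrow band far above all controls. Relative to the mean of the DMSO arrays, Cavin2 stood at 0.0020, 0.020 and -0.022 in the DMSO arrays and at 3.52, 3.62 and 3.43 in the IBET858 arrays, a rise of 3.52 ± 0.10 (11.5-fold). Cavin2 encodes a coat protein of caveolae, the small pits of the plasma membrane. Hexim1 itself stood at -0.076, -0.075 and 0.15 in the DMSO arrays and at 2.93, 2.78 and 2.57 with IBET858, a rise of 2.76 ± 0.10 (adjusted p = 1.35e-14). Its probe sets gave 3.09 and 2.43. Il6, the gene of the cytokine interleukin-6, stood at -0.21, 0.11 and 0.10 against 2.65, 2.84 and 2.71 and rose by 2.73 ± 0.12. In these 4 genes replicate 3 lay close to the other inhibitor arrays.

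The other genes among the 15 highest rises had varied roles. Depdc7, a gene of little known function, rose by 2.90 ± 0.14, and Gramd1c, of a family that moves cholesterol between membranes, by 2.70 ± 0.12. Tnfrsf12a, the receptor of the cytokine TWEAK, rose by 2.65 ± 0.059, with DMSO arrays at 0.074, -0.080 and 0.0070 and IBET858 arrays at 2.58, 2.60 and 2.76. No DMSO array came near an inhibitor array, and all of the 15 were picked among genes whose groups do not overlap. Hao1, a hydroxyacid oxidase, rose by 2.62 ± 0.18. Slc9a3r1, a scaffold that anchors membrane transporters, rose by 2.61 ± 0.10, and Sertad1, a regulator of cyclin-dependent kinase and E2F, by 2.59 ± 0.060. Strip2, a partner of phosphatase complexes, rose by 2.44 ± 0.23. For the ubiquitin ligase gene Trim17 the mean rise was 2.28 ± 0.13, but its probe sets disagreed in size, at 0.978 and 3.58. The remaining 3 were histone H3 genes, described next.

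**Figure D1:**
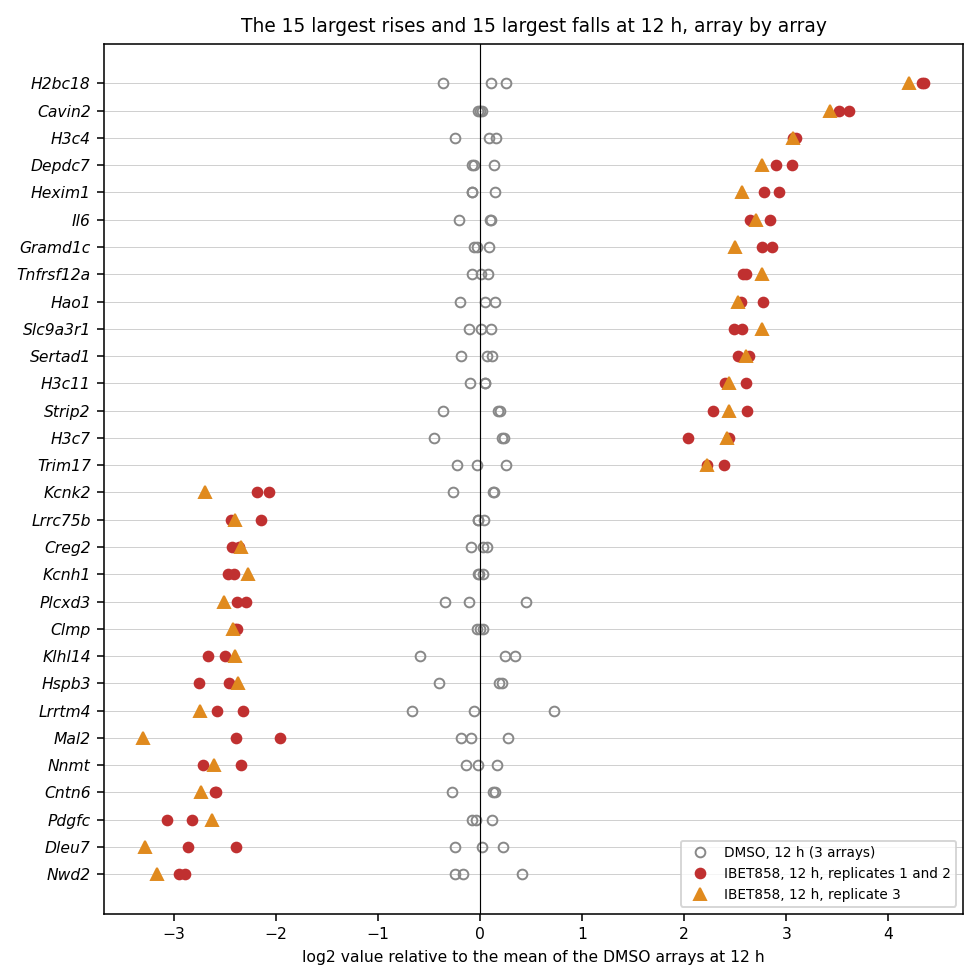
Log2 value of each array, relative to the mean of the DMSO arrays at 12 h, for the 15 genes with the largest called rises and the 15 with the largest called falls. Open circles are the 3 DMSO arrays, red points IBET858 replicates 1 and 2 and triangles replicate 3. Only genes whose groups do not overlap, and which were also called without replicate 3, were picked. Among the falls the triangles lie lowest for Mal2 and Dleu7, at -3.30 and -3.28.

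Histone genes rose as a group. Of 13 measured genes for clustered and linker histones, whose messages are mostly made in S phase and lack a poly-A tail, 10 rose and 0 fell, with a median change of 1.11 (the same counts without replicate 3). The shares of all genes were 22.9% higher and 25.8% lower. H3c4 stood at -0.24, 0.085 and 0.16 in the DMSO arrays and at 3.06, 3.10 and 3.06 with IBET858, a rise of 3.08 ± 0.17. H3c11 rose by 2.48 ± 0.13 and H3c7 by 2.30 ± 0.17, so that 3 histone H3 genes were among the 15 highest rises. H2ac19, a histone H2A gene, rose by 2.09 ± 0.077, and the linker histone gene H1f2 by 1.38 ± 0.15. The 3 members that were not called were H1f4 (0.19 ± 0.11), H1f7 (0.13 ± 0.074) and H2bc21 (-0.091 ± 0.090). Genes of replacement histones, which carry poly-A tails and are made outside S phase, gave a like count: of 9 measured, 8 rose and 1 fell, with a median change of 0.90 (the same counts without replicate 3). H2ax, which marks DNA breaks when phosphorylated, rose by 1.53 ± 0.057, H3f3a by 1.23 ± 0.078 and H2az2 by 1.23 ± 0.11. The only one that fell was Macroh2a2, a large variant found in silent chromatin, by 1.08 ± 0.065. Clustered histone genes are near-identical copies of each other, and their probe sets can share signal. Whether the probe sets report messages with or without a poly-A tail was not tested.

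Promoter sequences are shown for some of the highest rises and for one of the deepest falls, because CCAAT was more frequent among windows of the rises than over all genes. Each is the 120 bases before the RefSeq start site in GRCm38.p6, 5′ to 3′ on the gene's strand, in lower case with matches to TATAAA and CCAAT on either strand in capitals. H2bc18 lies at chr3:96269580-96269699, plus strand, H3c4 at chr13:23575643-23575762, plus strand, H3c11 at chr13:21783398-21783517, minus strand, Hexim1 at chr11:103116205-103116324, plus strand, Cavin2 at chr1:51289006-51289125, plus strand, Il6 at chr5:30012994-30013113, plus strand, and Kcnh1, a potassium channel gene among the deepest falls, at chr1:192190657-192190776, plus strand.
H2bc18: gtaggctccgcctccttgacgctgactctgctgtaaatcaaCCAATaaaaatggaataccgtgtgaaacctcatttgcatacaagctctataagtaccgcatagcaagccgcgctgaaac
H3c4: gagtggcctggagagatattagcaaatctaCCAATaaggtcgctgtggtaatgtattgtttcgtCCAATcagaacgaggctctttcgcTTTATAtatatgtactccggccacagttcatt
H3c11: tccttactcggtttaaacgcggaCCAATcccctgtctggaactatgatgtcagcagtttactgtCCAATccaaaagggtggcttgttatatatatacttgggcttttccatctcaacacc
Hexim1: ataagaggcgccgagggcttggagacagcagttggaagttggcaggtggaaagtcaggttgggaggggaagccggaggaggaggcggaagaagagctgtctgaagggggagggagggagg
Cavin2: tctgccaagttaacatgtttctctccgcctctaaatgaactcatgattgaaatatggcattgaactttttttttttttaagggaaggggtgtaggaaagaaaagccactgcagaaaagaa
Il6: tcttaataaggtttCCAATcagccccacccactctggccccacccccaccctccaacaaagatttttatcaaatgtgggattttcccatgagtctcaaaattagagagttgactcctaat
Kcnh1: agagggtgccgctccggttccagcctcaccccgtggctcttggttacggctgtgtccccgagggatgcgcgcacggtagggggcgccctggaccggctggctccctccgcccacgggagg
H3c4 and H3c11 carry a pair of CCAAT matches, and H2bc18 and Il6 carry 1. Hexim1 and Cavin2, also among the highest rises, have no match in this stretch, and neither has Kcnh1. RefSeq windows from 250 bases before to 50 after a start were found for 259 of the 317 genes that rose over 2-fold (302 windows), 399 of the 525 that fell (564 windows) and 14452 of all measured genes (18109 windows). CCAAT was present in 55.6% of the windows of the rises, 33.7% of those of the falls and 37.4% of those of all measured genes. With clustered histones left out the share among the rises was 54.7%. Of 11 windows of clustered histone genes, 81.8% held CCAAT and 36.4% TATAAA, against 9.77% with TATAAA over all measured genes.

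Against all measured genes, the other motifs, searched on both strands, differed by fewer percentage points in the rises than CCAAT did. TATAAA was in 13.6% of windows of the rises, 10.8% of the falls and 9.77% of all measured genes. The GC box GGGCGG was in 63.9% of windows of the rises, 52.8% of the falls and 52.3% of all measured genes, and the E-box CACGTG in 11.6%, 7.09% and 8.72%. For TGANTCA, the AP-1 site, the shares were 4.64%, 6.21% and 6.38%, and for the cyclic AMP response element TGACGTCA 1.99%, 1.42% and 2.49%. The NRF1 site was in 1.32%, 1.42% and 1.54%. No motif contains another. The median GC content was 61.7% in the rises, 58.7% in the falls and 58.3% in all measured genes, and the median ratio of observed to expected CpG was 0.768, 0.595 and 0.65. The 7295 genes that were not called and had a window gave 36.8% with CCAAT, 44.3% with the GC box and a CpG ratio of 0.513. Against these uncalled genes the rises differed in the GC box as widely as in CCAAT. The windows of rises and falls thus differed from those of uncalled genes in base composition. A match is a string of letters and was not tested as a binding site.

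Among genes of the BET and pause-release machinery, 9 rose and 4 fell, with a median change of 0.11 (10 and 4 without replicate 3), of 23 measured. Over all genes 22.9% rose and 25.8% fell. Brd2 stood at -0.12, 0.089 and 0.028 in the DMSO arrays and at 1.28, 1.38 and 1.41 with IBET858, and rose by 1.36 ± 0.057 (adjusted p = 9.89e-14). Its 2 probe sets gave 1.27 and 1.45. Brd3 differed by 0.11 ± 0.049 (adjusted p = 0.0807), and its 4 probe sets ranged from -0.11 to 0.53, so no direction is given. The P-TEFb cyclin gene Ccnt1 rose by 0.66 ± 0.070, whereas its kinase Cdk9 differed by 0.13 ± 0.059 and was not called. Cdk12, a kinase of elongating polymerase, rose by 0.72 ± 0.072, with its cyclin gene Ccnk at 0.50 ± 0.090 and its relative Cdk13 at 0.41 ± 0.064. Mepce, which caps the small RNA of the inactive P-TEFb store, rose by 0.59 ± 0.053, while Larp7, which binds the other end of that RNA, fell by 0.55 ± 0.064. Hexim2, the close relative of Hexim1, fell by 0.69 ± 0.11, against the rise of 2.76 in Hexim1. Of the genes for the pausing factor NELF, Nelfcd fell by 0.53 ± 0.092 and Nelfe by 0.32 ± 0.094, while Nelfa (-0.17 ± 0.073) and Nelfb (0.015 ± 0.052) were not called.

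Subunits of Mediator and RNA polymerase II moved in both directions: of 41 measured, 17 rose and 13 fell, with a median change of 0.10 (17 and 12, with a median of 0.067, without replicate 3). The shares of all genes were 22.9% higher and 25.8% lower. Polr2a, the catalytic subunit, rose by 1.09 ± 0.072 and Polr2b, its main partner, by 0.64 ± 0.045. The Mediator genes Med30, Med9 and Med21 fell by 0.63 ± 0.079, 0.61 ± 0.065 and 0.60 ± 0.071, and Med22 rose by 0.65 ± 0.051. Among acetyltransferases and deacetylases, which write and erase the marks BET proteins bind, 8 rose and 12 fell, with a median change of -0.084 (9 and 12 without replicate 3), of 30. The NAD-dependent deacetylase genes Sirt1 and Sirt7 rose by 1.37 ± 0.081 and 0.96 ± 0.062, and the mitochondrial Sirt5 fell by 1.35 ± 0.079. Kat5, the acetyltransferase of the TIP60 complex, fell by 0.98 ± 0.073.

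The 15 deepest falls were in genes of varied roles, with ion channels, adhesion proteins and enzymes among them. Nwd2 stood at 0.41, -0.17 and -0.25 in the DMSO arrays and at -2.89, -2.95 and -3.17 with IBET858, a fall to 0.125 of the DMSO value (adjusted p = 1.03e-10). Cntn6, a contactin that guides synapse formation, fell by 2.64 ± 0.13, with inhibitor arrays at -2.60, -2.59 and -2.73. Pdgfc, a platelet-derived growth factor gene, fell by 2.84 ± 0.14. The inhibitor arrays of these genes lay below every control, as the choice of the 15 required. Kcnh1, an ether-a-go-go potassium channel, fell by 2.38 ± 0.082, and Kcnk2, the background potassium channel TREK-1, by 2.32 ± 0.16. Clmp, a cell adhesion molecule, had the narrowest spread of the 15: DMSO arrays at 0.029, -0.0010 and -0.029 and inhibitor arrays at -2.40, -2.39 and -2.42, a fall of 2.40 ± 0.050. Lrrtm4, an adhesion protein of excitatory synapses, fell by 2.55 ± 0.32, although its DMSO arrays spread from -0.67 to 0.72.

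The remaining 8 of the 15 lowest were Dleu7 (-2.84), Nnmt, which methylates nicotinamide (-2.55), Mal2, a protein of vesicle sorting (-2.55), Hspb3, a small heat shock protein (-2.53), Klhl14 (-2.52), Plcxd3 (-2.40), Creg2, a secreted glycoprotein of brain (-2.38), and Lrrc75b (-2.33). Replicate 3 lay furthest from the controls in Mal2, at -3.30 against -1.96 and -2.39 for the other inhibitor arrays. Without it Mal2 changed by -2.17, and a call without that array was a condition for all of the 15.

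Genes of fast excitatory transmission fell. AMPA receptors carry most fast glutamate current, and of 16 genes for their subunits and auxiliary proteins 1 rose and 12 fell, with a median change of -0.63 (the same counts without replicate 3), against 25.8% of all genes called lower. All 4 pore subunits fell: Gria3 by 1.52 ± 0.14, Gria1 by 1.36 ± 0.062, Gria2 by 0.66 ± 0.081 and Gria4 by 0.60 ± 0.077. Gria1 stood at -0.095, -0.0070 and 0.10 in the DMSO arrays and at -1.31, -1.28 and -1.51 with IBET858, and Gria2, which sets the receptor's calcium permeability, at 0.057, 0.027 and -0.084 against -0.74, -0.49 and -0.74. The groups did not overlap in either gene. Among auxiliary subunits, Shisa9 fell by 1.39 ± 0.083, Cacng3 by 1.24 ± 0.15 and Cacng8 by 0.70 ± 0.075. Gsg1l, an auxiliary protein that slows recovery of the receptor, was the only member that rose, by 0.83 ± 0.14.

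Other glutamate receptor genes differed by subunit. Of 6 NMDA receptor genes 0 rose and 2 fell, with a median change of -0.11 (0 and 3, with a median of -0.19, without replicate 3): Grin3a, a subunit that lowers calcium entry, fell by 1.14 ± 0.052 and Grin2b by 0.36 ± 0.071, while Grin2a (-0.073 ± 0.13), Grin2d (-0.14 ± 0.092), Grin2c (0.084 ± 0.12) and Grin3b (0.16 ± 0.11) were not called. Of 7 kainate receptor genes 1 rose and 4 fell, with a median change of -0.52 (the same counts without replicate 3). The auxiliary subunits moved in opposite directions, Neto1 falling by 1.00 ± 0.14 and Neto2 rising by 1.03 ± 0.094. Grik1 fell by 1.10 ± 0.16 and Grik5 by 0.75 ± 0.085. Of 6 metabotropic receptor genes 0 rose and 4 fell, with a median change of -0.46 (the same counts without replicate 3). Grm8, a presynaptic receptor, fell by 1.25 ± 0.10 and Grm5, which couples to phospholipase C, by 1.12 ± 0.093.

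Inhibitory receptor genes fell as well. Of 19 GABA and glycine receptor genes 0 rose and 12 fell, with a median change of -0.37 (0 and 11 without replicate 3), where 25.8% of all genes fell. Gabra5, a subunit of receptors outside the synapse, stood at -0.15, 0.084 and 0.063 in the DMSO arrays and at -1.89, -1.88 and -2.07 with IBET858, a fall of 1.95 ± 0.11. Gabrb1 fell by 1.09 ± 0.096, Gabrb2 by 1.05 ± 0.062 and Gabrg1 by 0.75 ± 0.15. Glra2, the glycine receptor subunit of developing brain, fell by 0.66 ± 0.11. No member rose, and Gphn, the gene of the scaffold gephyrin, differed by -0.044 ± 0.081. Among 13 genes of transmitter synthesis and vesicle filling, 1 rose and 4 fell, with a median change of 0.10 (1 and 2, with a median of 0.046, without replicate 3). Slc17a6, the vesicular glutamate transporter VGLUT2, fell by 2.05 ± 0.076, with inhibitor arrays at -1.88, -2.06 and -2.21, while Slc17a7, the VGLUT1 gene, differed by -0.056 ± 0.15 and was not called. Of 22 monoamine and muscarinic receptor genes 1 rose and 7 fell, with a median change of -0.12 (0 and 8 without replicate 3), led by falls of the dopamine receptor gene Drd1 by 1.38 ± 0.21 and the serotonin receptor gene Htr1b by 0.93 ± 0.070.

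**Figure D2:**
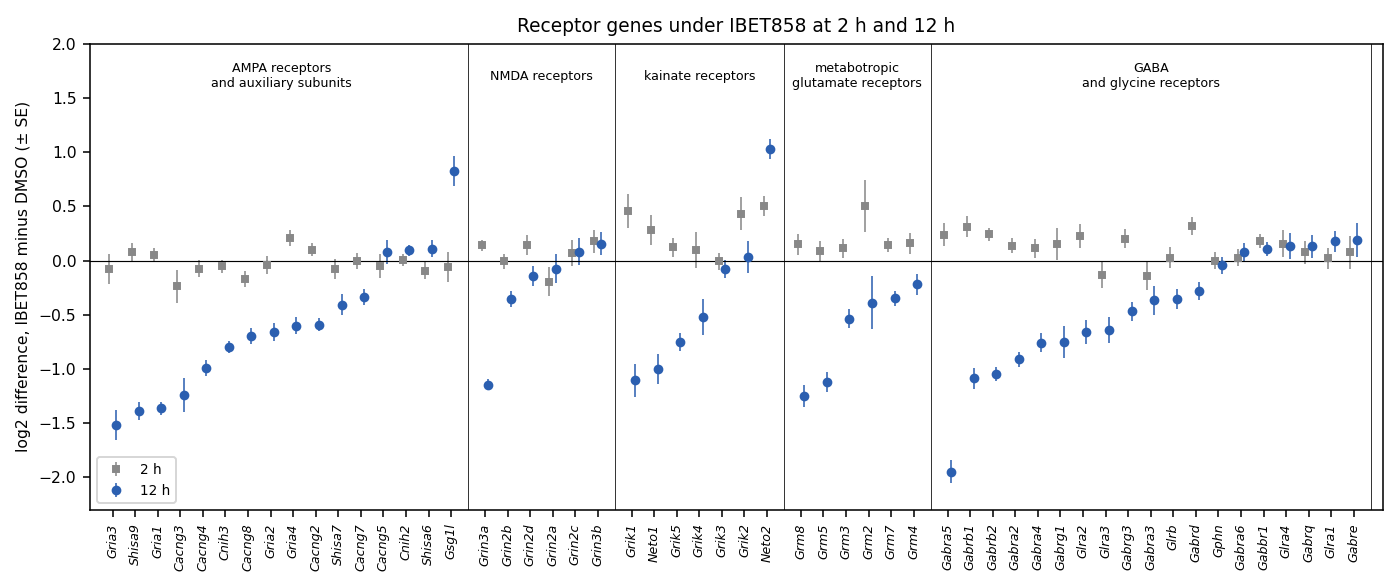
Log2 difference, IBET858 minus DMSO, of every measured receptor gene of 5 families, at 2 h (grey squares) and 12 h (blue circles), with the model's standard error. At 12 h most points lie below 0, down to -1.95 for Gabra5, while at 2 h, in the fit without array weights, no AMPA, NMDA, metabotropic glutamate, GABA or glycine receptor gene was called lower.

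Of 81 potassium channel genes 7 rose and 36 fell, with a median change of -0.17 (6 and 34 without replicate 3), where 22.9% of all genes rose and 25.8% fell. Over 2-fold, 9 fell and 1 rose. Behind Kcnh1 and Kcnk2, Kcnmb2, an auxiliary subunit of calcium-activated channels, fell by 1.59 ± 0.11. The rises were led by the auxiliary subunits Kcne4 (1.33 ± 0.11) and Kcne2 (0.85 ± 0.13). Of 29 sodium, calcium and HCN channel genes 2 rose and 12 fell, with a median change of -0.11 (the same counts without replicate 3). Scn2a, a sodium channel of axons and a gene linked to autism and epilepsy, stood at 0.014, -0.041 and 0.027 in the DMSO arrays and at -0.97, -1.06 and -1.29 with IBET858, a fall of 1.11 ± 0.10. The calcium channel beta subunits Cacnb2 and Cacnb4 fell by 0.98 ± 0.12 and 0.93 ± 0.081, and the T-type channel Cacna1g rose by 0.58 ± 0.089.

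Synaptic adhesion genes, which join the pre- and postsynaptic membranes, held one of the largest shares of falls: of 51 measured, 6 rose and 37 fell, with a median change of -0.48 (5 and 35 without replicate 3). Cntn6, Lrrtm4 and Cntn5 led the falls, Cntn5 with a fall of 1.53 ± 0.20. Cadm1 rose by 0.62 ± 0.13, Ptprf by 0.36 ± 0.051 and Nlgn2, the neuroligin of inhibitory synapses, by 0.29 ± 0.046. Very long neuronal genes, a list that shares members with the others (Lrrtm4, Cntn5 and Grm8 among them), gave a like count: of 58, 3 rose and 41 fell, with a median change of -0.53 (2 and 39 without replicate 3). Zfpm2, a cofactor of GATA proteins, rose by 0.84 ± 0.088 and Auts2 by 0.23 ± 0.066. Of 43 autism-associated genes 10 rose and 22 fell, with a median change of -0.18 (12 and 21 without replicate 3). Satb1, a chromatin organiser of interneurons, fell by 1.46 ± 0.084 and Tbl1xr1, a corepressor subunit, by 0.95 ± 0.096, while Kmt2c, a histone H3 methyltransferase, rose by 0.67 ± 0.066.

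Other adhesion and guidance genes were more mixed. Of 56 cadherins and protocadherins 12 rose and 22 fell, with a median change of -0.12 (7 and 20 without replicate 3). Pcdh20 fell by 1.49 ± 0.22 and Cdh6 by 1.40 ± 0.11, whereas Pcdh10 rose by 0.90 ± 0.069 and Pcdh17 by 0.76 ± 0.11. Of 70 axon guidance genes 16 rose and 25 fell, with a median change of -0.071 (13 and 24 without replicate 3). The netrin receptors moved apart: Unc5b stood at -0.14, 0.091 and 0.046 in the DMSO arrays and at 2.05, 1.94 and 2.21 with IBET858, a rise of 2.07 ± 0.078, and Unc5c fell by 1.12 ± 0.14. The secreted semaphorins Sema3e and Sema3a fell by 1.76 ± 0.27 and 1.59 ± 0.12. The ephrin receptors Epha10 and Ephb3 rose by 1.21 ± 0.077 and 1.12 ± 0.082.

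On the presynaptic side, 8 rose and 20 fell, with a median change of -0.25 (8 and 17 without replicate 3), of 39 release genes. Sv2b, a vesicle glycoprotein, fell by 1.90 ± 0.14, Doc2a, a calcium sensor of transmitter release, by 1.71 ± 0.087, and Cadps2, which primes dense-core vesicles, by 1.57 ± 0.47. Syn2, a synapsin, rose by 0.55 ± 0.069, and Unc13b, a priming factor, by 0.47 ± 0.075. Of 33 postsynaptic scaffold and signalling genes 7 rose and 10 fell, with a median change of -0.050 (6 and 10 without replicate 3). Dlgap1 and Dlg2, partners in the postsynaptic density, fell by 0.88 ± 0.082 and 0.77 ± 0.12, and Homer2 fell by 0.69 ± 0.055 where its relative Homer1 rose by 0.66 ± 0.057. Baiap2, which shapes dendritic spines, rose by 1.16 ± 0.053 and the kinase gene Prkca by 1.03 ± 0.067. The median of neuropeptide genes changed sign between settings, and of 30, 6 rose and 9 fell, with a median change of 0.0079 (the same counts, with a median of -0.010, without replicate 3). Grp, Vip and Adcyap1, which encode peptide transmitters, fell by 1.63 ± 0.27, 1.44 ± 0.10 and 1.32 ± 0.32, while Vgf and Chga, genes of dense-core granule proteins, rose by 1.29 ± 0.26 and 0.89 ± 0.059.

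Among 33 transcription factors and cofactors of cortical projection neurons, 6 rose and 18 fell, with a median change of -0.17 (6 and 16 without replicate 3). Lmo3, a LIM-domain cofactor, fell by 2.18 ± 0.14, Neurod6, a factor of differentiating pyramidal neurons, by 0.98 ± 0.14, and Foxp1 by 0.84 ± 0.13. Tle4, a corepressor of deep-layer neurons, rose by 0.71 ± 0.068 and Pou3f1, a POU factor, by 0.67 ± 0.14. Of 21 interneuron regulators 5 rose and 7 fell, with a median change of -0.034 (5 and 5 without replicate 3), and this median also changed sign between settings. The homeobox genes Dlx6 and Dlx5, neighbours on the chromosome, rose by 1.15 ± 0.13 and 0.76 ± 0.11, and Npas3 and Zeb2 fell by 0.75 ± 0.056 and 0.66 ± 0.078.

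Genes that neuronal activity induces were mostly higher with the inhibitor alone. Of 31 activity-induced transcription factor genes 19 rose and 4 fell, with a median change of 0.45 (17 and 3 without replicate 3), where 22.9% of all genes rose. Egr1 stood at -0.11, 0.094 and 0.016 in the DMSO arrays and at 1.14, 1.14 and 1.15 with IBET858, a rise of 1.14 ± 0.085 (adjusted p = 4e-10), and Fos at -0.24, 0.089 and 0.15 against 0.59, 0.59 and 0.66, a rise of 0.62 ± 0.073. Npas4, which neurons induce on calcium entry, rose by 1.77 ± 0.21, the AP-1 gene Junb by 1.65 ± 0.084 and Klf4 by 1.30 ± 0.11. Bhlhe40, a repressor that also acts in the circadian clock, fell by 0.97 ± 0.12, and Fosl2 by 0.46 ± 0.12. Of 36 effector genes 23 rose and 3 fell, with a median change of 0.54 (20 and 3 without replicate 3). Gadd45b and Gadd45g, stress sensors linked to DNA demethylation, rose by 2.08 ± 0.087 and 1.81 ± 0.20, and Nptx2, a pentraxin that clusters AMPA receptors, by 1.52 ± 0.086. Arc, which drives AMPA receptor uptake, stood at 0.014, -0.086 and 0.072 against 0.91, 0.61 and 1.12 and rose by 0.88 ± 0.14. Inhba, an activin subunit, fell by 0.54 ± 0.082 and the kinase gene Sgk1 by 0.41 ± 0.079.

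Bdnf itself differed by 0.25 ± 0.26 (adjusted p = 0.459), with a wide spread among the DMSO arrays of -0.38, 0.16 and 0.22 against 0.22, 0.15 and 0.37 with IBET858. Its probe sets gave 0.54 and -0.049. Myc, a gene that BET inhibitors lower in many tumour lines, fell by 0.41 ± 0.11, from -0.15, 0.12 and 0.035 in the DMSO arrays to -0.51, -0.39 and -0.33. Of 31 dual-specificity phosphatases and feedback inhibitors of receptor signalling 7 rose and 14 fell, with a median change of -0.19 (6 and 13 without replicate 3). Dusp26 and Dusp3 fell by 1.81 ± 0.10 and 1.21 ± 0.076, and Dusp14 rose by 1.19 ± 0.088.

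The rise of Il6 stood beside smaller changes in other immune genes, where 22.9% of all genes rose and 25.8% fell. Of 17 genes of the interleukin-6 family, its receptors and its feedback inhibitors 7 rose and 2 fell, with a median change of 0.21 (6 and 2 without replicate 3). Lifr, the receptor of leukaemia inhibitory factor, rose by 0.81 ± 0.076 and Socs1, which blocks cytokine signalling, by 0.73 ± 0.11. Of 54 chemokine and NF-kappaB genes 11 rose and 10 fell, with a median change of 0.051 (10 and 9, with a median of -0.020, without replicate 3), none over 2-fold. Cxcl2 rose by 0.82 ± 0.15 and Nfkbie, an NF-kappaB inhibitor, by 0.63 ± 0.10, while Cxcl14 fell by 0.87 ± 0.068 and Ccl3 by 0.62 ± 0.12. Of 29 interferon and antigen presentation genes 9 rose and 6 fell, with a median change of 0.0072 (9 and 5, with a median of -0.083, without replicate 3). Here the antigen presentation genes Psmb9, H2-K1 and B2m rose by 1.60 ± 0.12, 1.27 ± 0.088 and 1.03 ± 0.096, and Ifit2, an antiviral effector, fell by 1.17 ± 0.15. The sign of the median of these last 2 lists depended on the setting.

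Of 64 secreted growth factor genes 8 rose and 13 fell, with a median change of 0.053 (7 and 16, with a median of -0.0023, without replicate 3), with no settled sign of the median. Pdgfc was the lowest, followed by Gdf10 at -1.71 ± 0.20 and Igf1 at -1.23 ± 0.13, and Tgfb2 rose by 0.75 ± 0.089. Of 54 WNT pathway genes 18 rose and 8 fell, with a median change of 0.13 (14 and 10, with a median of 0.052, without replicate 3). The secreted WNT antagonist Sfrp1 rose by 1.38 ± 0.077 and the receptors Fzd1 and Fzd7 by 0.96 ± 0.078 and 0.95 ± 0.081, whereas Rspo3, which strengthens WNT signals, fell by 1.97 ± 0.21. Of 23 Notch, HES and ID genes 6 rose and 3 fell, with a median change of 0.068 (the same counts without replicate 3). Hey1, a Notch target, rose by 0.87 ± 0.086 and Dll1, a Notch ligand, fell by 0.81 ± 0.076. Against the 11.5-fold rise of Cavin2, the caveolin genes Cav1 and Cav2 fell by 0.87 ± 0.19 and 0.56 ± 0.11, and of 8 caveolin and cavin genes 1 rose and 2 fell, with a median change of -0.048 (1 and 3, with a median of -0.11, without replicate 3). Of 105 matrix and protease genes 13 rose and 27 fell, with a median change of -0.034 (10 and 28, with a median of -0.074, without replicate 3). The sign of the median of these last 2 lists also depended on the setting. Adamts15 and Adamts1, proteases that cut matrix proteoglycans, fell by 1.35 ± 0.18 and 1.26 ± 0.16, and Mmp17 rose by 1.01 ± 0.080. The neurofilament genes Nefl and Nefm rose by 1.54 ± 0.11 and 1.41 ± 0.10, within 14 intermediate filament genes of which 6 rose and 2 fell, with a median change of 0.13 (5 and 2, with a median of 0.061, without replicate 3).

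Stress lists were mixed, against 22.9% of all genes higher and 25.8% lower. Of 35 genes of the amino acid and endoplasmic reticulum stress response 18 rose and 4 fell, with a median change of 0.28 (19 and 5 without replicate 3). Ddit3, the stress factor CHOP, rose by 1.26 ± 0.11, Sesn2, an inhibitor of mTORC1, by 0.94 ± 0.16 and Atf3 by 0.90 ± 0.15, while the lipoprotein receptor gene Vldlr fell by 1.10 ± 0.085 and Asns, asparagine synthetase, by 0.44 ± 0.059. Of 44 heat shock genes 13 rose and 13 fell, with a median change of 0.038 (13 and 12, with a median of 0.013, without replicate 3). The inducible chaperone genes Hspa1b and Hspa1a, near-identical copies, rose by 1.65 ± 0.12 and 1.19 ± 0.092, and Hspa2 by 1.89 ± 0.16. Dnajb14 fell by 1.56 ± 0.077. Of 22 NRF2 and metallothionein genes 6 rose and 4 fell, with a median change of 0.023 (7 and 3, with a median of 0.0076, without replicate 3), where the median had no settled sign. Gclc, which makes glutathione, rose by 1.13 ± 0.069, and Me1, malic enzyme, fell by 1.37 ± 0.11. Of 20 p53 targets 4 rose and 10 fell, with a median change of -0.21 (3 and 7 without replicate 3). The pro-apoptotic gene Pmaip1 rose by 1.09 ± 0.10 and Perp fell by 1.14 ± 0.21.

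Of 50 cell cycle and DNA licensing genes 25 rose and 6 fell, with a median change of 0.18 (21 and 6 without replicate 3). Among all genes 22.9% rose and 25.8% fell. Those that rose most were Cdkn1c, an inhibitor of cyclin-dependent kinases, by 1.14 ± 0.21, the repressor E2f7 by 1.05 ± 0.14 and Ccne2, an S-phase cyclin, by 0.98 ± 0.14. Cdk6 fell by 0.54 ± 0.11 and E2f3 by 0.42 ± 0.067. Mki67, the marker of dividing cells, differed by -0.44 ± 0.25 and was not called.

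Large housekeeping families moved by small amounts, beside shares of 22.9% higher and 25.8% lower over all genes. Of 49 cytosolic ribosomal protein genes 20 rose and 2 fell, with a median change of 0.11 (18 and 1 without replicate 3), with Rpl12 at 0.92 ± 0.098 the highest. Of 80 respiratory chain genes 7 rose and 34 fell, with a median change of -0.089 (6 and 35 without replicate 3). The complex I gene Ndufs1 fell by 1.19 ± 0.053 and Cox7c, of complex IV, rose by 0.69 ± 0.088. Of 39 proteasome genes 7 rose and 17 fell, with a median change of -0.098 (7 and 18, with a median of -0.047, without replicate 3). The catalytic subunit Psmb5 fell by 0.45 ± 0.056, and the immunoproteasome genes moved apart, Psmb9 rising as above and Psmb10 falling by 0.88 ± 0.072. Of 30 cholesterol and fatty acid synthesis genes 5 rose and 14 fell, with a median change of -0.15 (8 and 11 without replicate 3), with Nsdhl at -0.74 ± 0.11 the lowest. Of 29 splicing factor genes 10 rose and 9 fell, with a median change of -0.012 (the same counts, with a median of 0.042, without replicate 3). Hnrnpd, which binds AU-rich messages, fell by 1.20 ± 0.080, and Srsf10 rose by 0.67 ± 0.066. Of 49 amino acid and monoamine transporters 10 rose and 12 fell, with a median change of 0.0079 (the same counts, with a median of -0.048, without replicate 3). Slc1a5, a glutamine carrier, rose by 0.83 ± 0.069 and Slc6a15, a neuronal amino acid carrier, fell by 1.32 ± 0.098. The median of splicing factors and of transporters changed sign between settings.

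Of 41 enzymes of cyclic nucleotides 6 rose and 21 fell, with a median change of -0.18 (5 and 21 without replicate 3), beside shares of 22.9% higher and 25.8% lower over all genes. The phosphodiesterase Pde8b fell by 1.99 ± 0.33 and the calcium-stimulated cyclase Adcy8 by 1.52 ± 0.17, while the cyclase Adcy9 rose by 0.79 ± 0.059. Of 19 regulators of G protein signalling 2 rose and 9 fell, with a median change of -0.19 (the same counts without replicate 3). Rgs13 and Rgs8 fell by 2.10 ± 0.47 and 1.28 ± 0.17, and Rgs2 rose by 0.67 ± 0.19. Of 19 clock genes 6 rose and 6 fell, with a median change of 0.0073 (5 and 6, with a median of 0.058, without replicate 3). Npas2 fell by 1.43 ± 0.17 and Per3 rose by 0.69 ± 0.068, and the median had no settled sign.

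**Figure D3:**
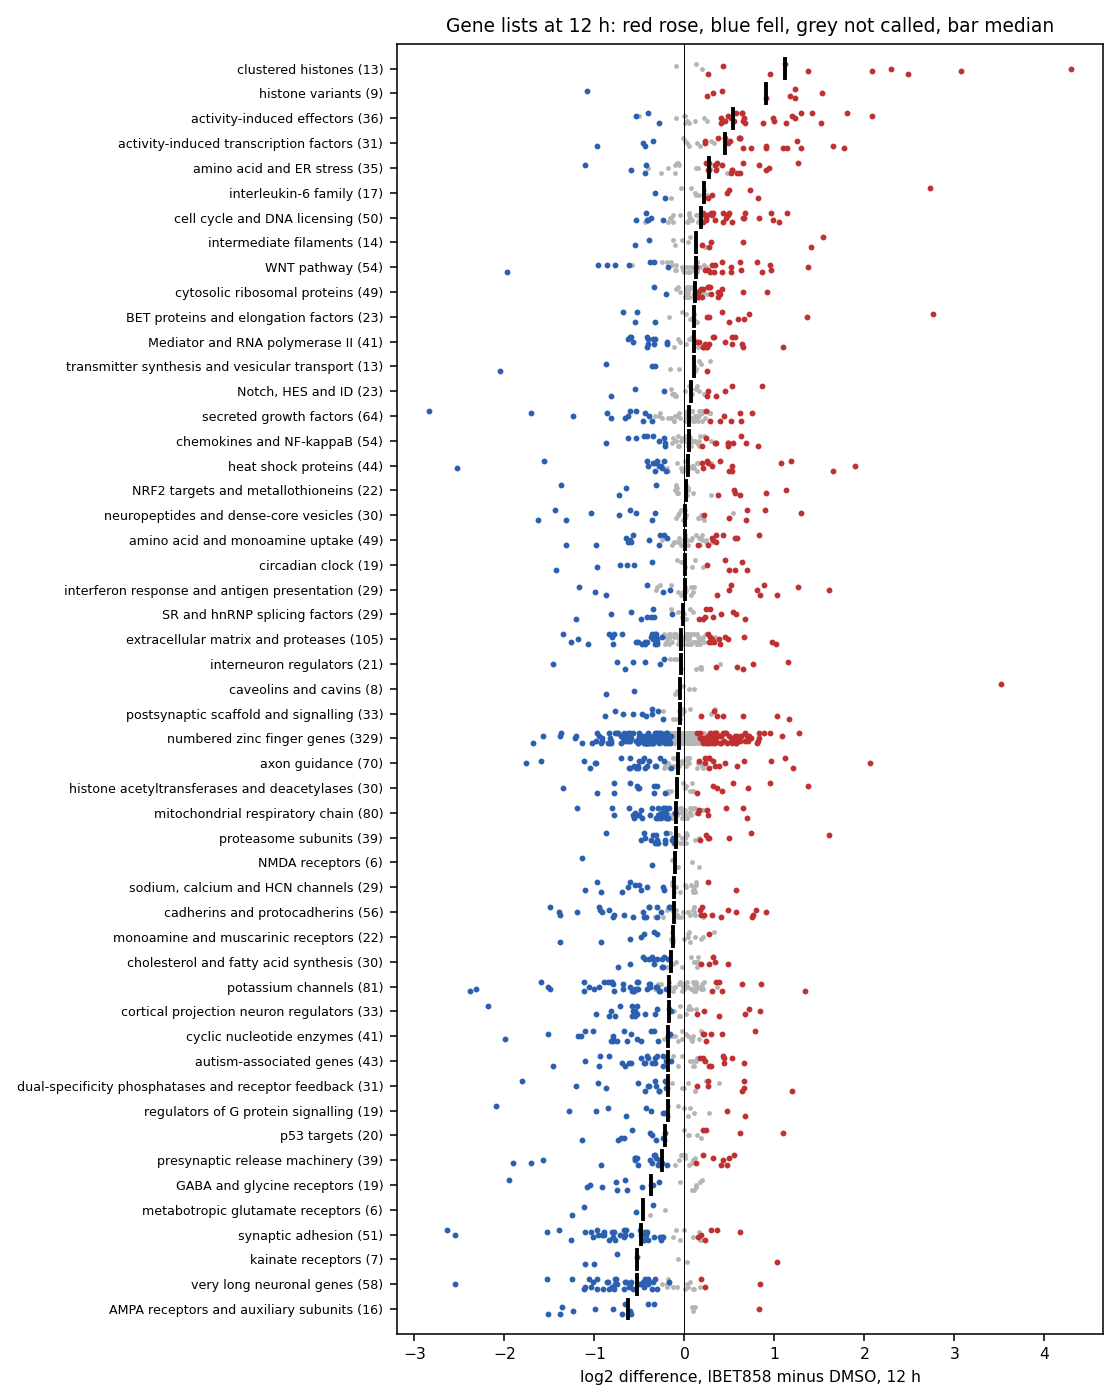
Log2 difference, IBET858 minus DMSO at 12 h, of every measured member of 51 gene lists, ordered by the list's median (black bar), with the number measured in brackets. Red points rose, blue points fell and grey points were not called. Clustered histones lie highest, with a median of 1.11, and AMPA receptor genes lowest, with a median of -0.63. Lists share some members.

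Markers of cell types gave the following counts beside these results, where 22.9% of all genes rose and 25.8% fell. Of 10 pan-neuronal markers 3 rose and 5 fell, with a median change of -0.17 (3 and 4 without replicate 3), with Elavl4, an RNA-binding protein of neurons, at -1.61 ± 0.082 and Rbfox3, the NeuN gene, at -0.65 ± 0.051, against the rises of Nefl and Nefm. Snap25 (-0.061 ± 0.096) and Tubb3 (-0.17 ± 0.069) were not called. Of 7 excitatory markers 2 rose and 3 fell, with a median change of -0.24 (2 and 2 without replicate 3). Of 7 inhibitory markers 2 rose and 2 fell, with a median change of 0.12 (2 and 1, with a median of 0.058, without replicate 3), where Gad2 differed by 0.19 ± 0.11 and Slc32a1 by 0.12 ± 0.061. Of 10 microglial markers 0 rose and 5 fell, with a median change of -0.31 (the same counts without replicate 3), with Ptprc at -0.70 ± 0.11 and Cx3cr1 at -0.43 ± 0.085. The median over microglial markers was between -0.37 and -0.22 in the inhibitor arrays and between -0.024 and 0.041 in the controls. Of 9 astrocyte markers 1 rose and 4 fell, with a median change of -0.23 (1 and 5 without replicate 3). Aqp4 and Gja1 fell by 1.21 ± 0.18 and 1.02 ± 0.17, Sox9 rose by 0.84 ± 0.14, and Gfap differed by -0.11 ± 0.16. Their median lay between -0.41 and -0.15 in the inhibitor arrays and between -0.15 and 0.31 in the controls. Of 9 oligodendrocyte markers 1 rose and 2 fell, with a median change of -0.21 (1 and 3 without replicate 3), of 6 endothelial markers 1 rose and 0 fell, with a median change of 0.12 (0 and 0 without replicate 3), of 6 mural and fibroblast markers 1 rose and 1 fell, with a median change of -0.090 (the same counts, with a median of -0.14, without replicate 3), and of 8 progenitor markers 2 rose and 2 fell, with a median change of -0.029 (1 and 2 without replicate 3). The medians of mural and progenitor markers changed sign between settings. Without levels, none of these markers can be said to be present or absent, and the part of other cell types in the results was not tested.

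The comparison with 2 h asks which changes came early. At 2 h IBET858 called 2713 of 18193 genes (14.9%), 1027 higher (5.65%) and 1686 lower (9.27%), from arrays that share no sample with those at 12 h. Of the 317 genes that rose over 2-fold at 12 h, 209 (65.9%) had risen at 2 h, whereas of the 525 that fell over 2-fold 102 (19.4%) had fallen. Over all called genes the shares were alike, at 802 of 4160 rises (19.3%) and 878 of 4701 falls (18.7%). The counts at 2 h depended on array weights, a limma option that counts an array for more the closer it lies to its group, and that gave the DMSO arrays at 2 h weights of 0.170, 4.85 and 0.973. With them 2949 genes were higher (16.2%) and 2879 lower (15.8%) at 2 h, 32.0% in all. The shares seen at 2 h were then 77.3% of the 317 rises and 33.5% of the 525 falls, and 33.4% of all rises and 30.7% of all falls. Without DMSO replicate 1 at 2 h, whose standard deviation was the largest of all arrays, 902 genes were higher (4.96%) and 1636 lower (8.99%). Tested as a difference between the effects, 6030 genes (33.1%) differed between the times, 2871 higher (15.8%) and 3159 lower (17.4%) at 12 h. Of the 317 rises, 262 had a higher effect at 12 h than at 2 h by this test and 6 a lower one. Of the 525 falls 497 had a lower effect at 12 h and 1 a higher one. These genes were picked for their effect at 12 h, which is part of the difference, so the choice itself leans these counts towards 12 h. Without IBET858 replicate 3 the difference was called in 6170 genes (33.9%). Across all genes the effects correlated at 0.442 between times, a description in which genes are not independent.

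Hexim1, Depdc7 and most clustered histone genes were already higher at 2 h. H2bc18 was already up by 3.95 ± 0.23 at 2 h, and the difference to 12 h was 0.35 ± 0.32 (adjusted p = 0.473). Hexim1 was up by 2.48 ± 0.10 at 2 h and Depdc7 by 2.84 ± 0.14, with differences to 12 h of 0.28 ± 0.14 and 0.069 ± 0.19 that were not called, although with array weights that of Hexim1 was (adjusted p = 0.000751 in limma). The histone H3 genes went further up: the differences to 12 h were 0.64 ± 0.23 for H3c4 (adjusted p = 0.0387), 0.59 ± 0.18 for H3c11 (adjusted p = 0.0138) and 0.74 ± 0.24 for H3c7 (adjusted p = 0.0203). Of 13 clustered histone genes 10 were higher at 2 h, where 5.65% of all genes were, and by the test of the difference 6 were higher and 1 lower at 12 h. Of 9 replacement histone genes 3 rose at 2 h (6 with array weights) against 8 at 12 h. Activity-induced factors had 17 of 31 higher at 2 h against 19 at 12 h. Brd2 rose further, from 0.70 ± 0.057 at 2 h, with a difference of 0.65 ± 0.081 (adjusted p = 2.03e-06).

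Cavin2 and Il6 changed late. At 2 h Cavin2 differed by 0.18 ± 0.10 and Il6 by 0.025 ± 0.12, neither called, so that nearly all of their rise lay between the times. With array weights Cavin2 stood at 0.24 at 2 h and was called. Grk5, a kinase of G protein-coupled receptors, stood at -0.39 ± 0.17 at 2 h and 1.69 ± 0.17 at 12 h. Kyat3, a kynurenine aminotransferase, moved from 0.31 ± 0.092 to 2.18 ± 0.092, Mlf1 from 0.43 ± 0.094 to 2.25 ± 0.094 and Tekt2, a tektin of cilia, from 0.43 ± 0.11 to 2.21 ± 0.11. Among the falls, Cntn6 went from 0.084 ± 0.13 to -2.64 ± 0.13 and Kcnh1 from 0.19 ± 0.082 to -2.38 ± 0.082. Falls in the receptor families came late: of 16 AMPA receptor genes none was called at 2 h (1 higher and 1 lower with array weights) and 11 were lower at 12 h than at 2 h by the test of the difference, and of 19 GABA and glycine receptor genes 3 were higher and none lower at 2 h, with 11 lower by the difference. Over all genes that difference was lower in 17.4%. With array weights, 3 of 6 metabotropic and 2 of 6 NMDA receptor genes were higher at 2 h. So were 2 of 7 kainate and 4 of 19 GABA and glycine receptor genes. None in these families was lower, and 16.2% of all genes were higher in that fit. Very long neuronal genes had 4 of 58 lower at 2 h and 36 lower by the difference.

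Numbered zinc finger genes, many of which encode DNA-binding repressors with a KRAB domain, took the opposite course. The list was drawn by gene name, so a member need not carry that domain. Of 329 measured, 11 rose and 142 fell at 2 h, with a median of -0.23, where 9.27% of all genes fell. At 12 h 70 rose and 117 fell, with a median change of -0.058 (74 and 100 without replicate 3). By the test of the difference 117 were higher at 12 h than at 2 h and 38 lower, against 15.8% and 17.4% of all genes. At 12 h Zfp423 rose by 1.28 ± 0.21 and Zfp239 fell by 1.68 ± 0.094.

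**Figure D4:**
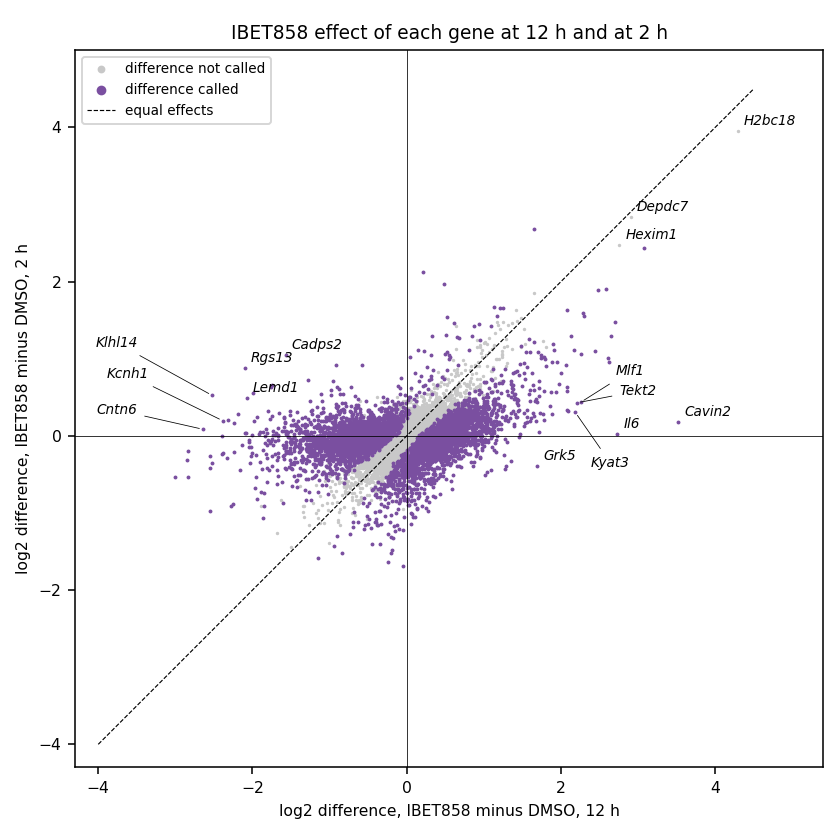
Effect of IBET858 on each of 18193 genes at 12 h (horizontal axis) and at 2 h (vertical axis), as log2 differences from DMSO at the same time, with the dashed line at equal effects. Purple points are genes whose effects differed between the times. H2bc18, Depdc7 and Hexim1 lie near the line, and Cavin2, Il6 and Cntn6 lie near 0 at 2 h.

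The comparison with BDNF asks whether the inhibitor did the same in stimulated cultures. With 50 ng per ml BDNF in both groups, IBET858 called 8510 genes (46.8%), 3847 higher (21.1%) and 4663 lower (25.6%), again from other arrays. Of the 317 rises over 2-fold without BDNF, 304 (95.9%) were also higher with it, and of the 525 falls 492 (93.7%) were also lower. Over all genes the effects correlated at 0.798, and at 0.809 without replicate 3. The effects differed in size in 2946 genes (16.2%), 1628 higher with BDNF (8.95%) and 1318 lower (7.24%), and without replicate 3 in 1437 (7.9%) and 1191 (6.55%). Of the 525 falls, 161 were closer to 0 or reversed with BDNF, and 63 were further from 0. Of the 317 rises 72 were closer or reversed and 68 further. Here too the genes were picked for the effect without BDNF, which is part of the difference.

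Some of the leading genes responded differently with BDNF. Il6 rose by 1.05 ± 0.12 with BDNF, a difference of -1.68 ± 0.17 from the effect without it (adjusted p = 6.43e-07). The histone genes H3c4 and H3c11 rose by 1.72 ± 0.17 and 1.12 ± 0.13, also less than without BDNF by the test of the difference, and so did H2bc18 at 3.05 ± 0.23. Of 13 clustered histone genes 6 were lower by that test, where 7.24% of all genes were, and of 9 replacement histone genes 2 were higher and 1 lower. Cavin2 rose by 3.48 ± 0.10 and Brd2 by 1.35 ± 0.057 with BDNF, and their differences from the effects without BDNF, -0.041 ± 0.15 and -0.0040 ± 0.081, were not called. Hexim1 rose by 2.35 ± 0.10, with a difference of -0.41 ± 0.14 (adjusted p = 0.0518). Egr1 rose by 0.34 ± 0.085 against 1.14 without BDNF, a difference of -0.80 ± 0.12 (adjusted p = 7.65e-05).

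Several genes that moved far with BDNF moved less, or the other way, without it. Serpinb2, an inhibitor of plasminogen activators, differed by 0.48 ± 0.17 without BDNF and 4.53 ± 0.17 with it, and here IBET858 replicate 3 stood at 0.022 where the other two stood at 0.71 and 0.72. Chrna1, a nicotinic receptor subunit of muscle, differed by -0.11 ± 0.13 without BDNF and by -3.23 ± 0.13 with it. The matrix gene Tnc went the opposite way, at -1.18 ± 0.19 without BDNF and 2.36 ± 0.19 with it, and Ebi3, a cytokine subunit, at -1.01 ± 0.12 and 2.08 ± 0.12. Slc17a6 fell by 2.05 ± 0.076 without BDNF and stood at 0.14 ± 0.076 with it. Cyp26b1, which degrades retinoic acid, rose by 0.85 ± 0.14 without BDNF and stood at -2.27 ± 0.14 with it. The metallothionein gene Mt2 and the homeobox gene Gsx1 rose by 0.56 ± 0.095 and 1.51 ± 0.17 without BDNF, and stood at -1.82 ± 0.095 and -0.87 ± 0.17 with it.

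**Figure D5:**
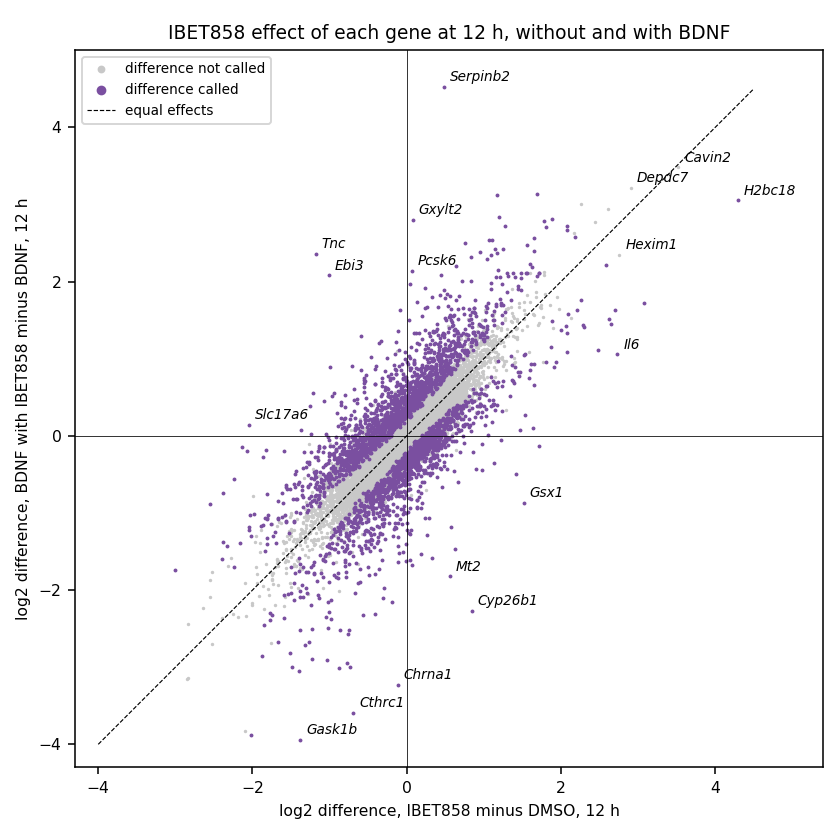
Effect of IBET858 at 12 h on each of 18193 genes without BDNF (horizontal axis) and with BDNF (vertical axis), as log2 differences, with the dashed line at equal effects. Purple points are genes whose effects differed by the test of the difference. Most genes lie along the line, while Serpinb2, at 4.53 with BDNF, and Chrna1, at -3.23, lie far from it.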

How the data were processed

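RNA of 24 samples was measured on Affymetrix mouse arrays, and 6 arrays form the main comparison. The authors made the deposited log2 values with RMA, per the submitters' processing notes. RMA sets all arrays to the same distribution, which hides any change in total RNA. In the deposited table each of 45101 probe sets had a median of 0 over the 24 arrays (within 1e-06), so levels are lost. The log base is not written in the table and is taken from RMA. Detection calls and scanner files were not used here. Precision is limited by the number of arrays.

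By the platform annotation 34958 probe sets had 1 gene symbol, 932 several and 9211 none listed, and Entrez IDs matched 34754 to RefSeq (GRCm38.p6). A gene's value was the mean of its probe sets, giving 18193 genes, 9010 with over 1 probe set. Of 373 called genes past 2-fold with over 1 probe set, all probe sets had the same sign in 359. limma 3.58.1 in R 4.3.3 fitted 1 mean for each of 8 groups (16 residual degrees of freedom), and tests were two-sided. The script was tested on simulated data. No pair of arrays held identical values. Promoter windows are RefSeq's, from 250 bases before to 50 after a start.

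Named genes were the 15 highest and 15 lowest called changes that did not overlap between groups and held without IBET858 replicate 3. Up to 3 called rises and 3 called falls of a list and a short fixed set were added. So were the 6 highest and 6 lowest of each difference, among those also called without that replicate. Unnamed and predicted genes were left out. Other list members were named after their values were seen, to complete a family or pair. The comparison and the lists were chosen with earlier results of these data known, so lists carry counts and no test. Alternatives left out each array in turn, fitted the compared groups alone, added a replicate block or array weights, shifted arrays to 1 median, used the median or only the plain probe sets, or made the variance prior robust.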

Additional observations from a re-analysis of the deposited data

Results flagged for a closer look

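The IBET858 effect differed between 12 h and 2 h by the test of the difference in 2871 genes that were higher and 3159 that were lower at 12 h. The largest positive differences, in log2 units, were in Cavin2 (3.34), Il6 (2.71), Grk5 (2.08), Kyat3 (1.88), Mlf1 (1.82) and Tekt2 (1.78). The largest negative differences were in Klhl14 (-3.05), Rgs13 (-2.98), Cntn6 (-2.72), Cadps2 (-2.62), Kcnh1 (-2.58) and Lemd1 (-2.57). DMSO replicate 1 at 2 h, with a standard deviation of 0.178 around its group, enters all of them: without it the difference was -1.98 for Rgs13 and -1.60 for Cadps2, and both were still called.

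With BDNF present the IBET858 effect at 12 h was higher in 1628 genes and lower in 1318, again by the test of the difference. The largest positive differences, with BDNF minus without, were in Serpinb2 (4.04), Tnc (3.54), Ebi3 (3.09), Gxylt2 (2.73), Slc17a6 (2.19) and Pcsk6 (2.08). The largest negative ones were in Chrna1 (-3.12), Cyp26b1 (-3.11), Cthrc1 (-2.90), Gask1b (-2.57), Mt2 (-2.39) and Gsx1 (-2.38). All 24 of these differences between times or with BDNF were picked among those also called without IBET858 replicate 3. Their call without that array was therefore set by the choice and is no separate support.

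Control probe sets outside the gene measurement also moved at 12 h. The mean of 27 poly-A control probe sets was 0.865 higher with IBET858, with all 27 higher, against 0.499 with BDNF present and 0.126 at 2 h. The mean of 18 hybridisation control probe sets was 0.254 higher, with 17 of them higher. What these shifts mean for the mouse genes was not tested.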

How the results depend on the processing

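The counts of called genes stayed within 1.5 times under every alternative for both effects at 12 h and both differences of effects. At 2 h, where all alternatives were chosen after seeing the data, they did not: array weights gave 2949 higher and 2879 lower genes, against 1027 and 1686, and the groups compared alone gave 639 and 1087. Leaving out 1 array gave 796 to 1155 higher and 1343 to 1717 lower. For IBET858 at 12 h the genes called higher ranged from 3672 to 4535 when 1 array was left out and from 3212 (only the groups compared) to 4140 under the other settings. The genes called lower ranged from 4335 to 4596 and from 3966 to 4909. Lower genes outnumbered higher ones except without IBET858 replicate 2, where 4535 were higher and 4463 lower. Arrays shifted to 1 median gave 3848 higher and 4909 lower. For the difference between times, leaving out both arrays that stand apart, chosen after seeing the data, gave 3203 higher and 3487 lower.

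Replicate numbers are shared between the groups, but same-numbered arrays did not deviate together (r = -0.060, 0.090 and -0.098), so the numbers were not taken as pairs. With the replicate number as a block 4045 genes were higher and 4607 lower.

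Among the genes picked by the naming rule, many of which the report leaves out, 5 values changed sign, all from a different choice of probe sets, which by construction changes what is averaged: with plain probe sets alone Clcf1 was at 0.010, Rpl22 at 0.051, Pdgfrb at 0.13 and Pde1a at 0.30 (adjusted p = 0.0190 in limma), and with the median of probe sets Rpl22 was at 0.016. Another 85 values were no longer called, 16 of them without IBET858 replicate 3. Of the picked genes that the report describes, 2 lost the call: Auts2 with the compared groups alone (adjusted p = 0.0605 in limma) and Ptprc with plain probe sets (adjusted p = 0.353). Other picked genes that lost a call, among them Tbr1, Gad1 and Syt1, are not described above. The count of 2 therefore depends on which genes were left out and is no measure of stability. Brd3 passed the threshold under 3 settings. The medians of 33 of 60 lists moved by more than the spread between arrays under some setting, most often with plain probe sets (16 lists) and without IBET858 replicate 3 (14 lists). A filter on dim probe sets was not run, because centred values hold no level, and for the same reason detection limits are unknown.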
